A study of Gossypium hirsutum with 6 samples.

Results

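The transcripts described here are the well expressed genes of upland cotton (Gossypium hirsutum) that the annotation places on scaffolds rather than on a chromosome. They were chosen as the identifiers starting with Gh_Sca whose mean FPKM over 6 leaf libraries was 10 or more. An FPKM value is a fragment count divided by transcript length in kilobases and by the library's mapped fragments in units of 1000000. The rule took 192 of 1862 scaffold identifiers, out of 65126 identifiers in all. The libraries came from the first true leaf, 3 of them from the virescent mutant Yt30, with the genotype label MSmsv1v1, and 3 from its green wild type, labelled msmsv1v1. Both labels carry v1v1, so the genotypes differ in the labels by the MS symbol, and the title names Yt30 a recessive genic male sterile line. The labels number the libraries and do not say whether they came from separate plants, so p-values measure the spread between libraries, which may be technical.

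A scaffold is a stretch of assembled sequence that could not be joined to a chromosome, often because it is short or rich in repeats, or because it resembles other stretches too closely to be placed. Upland cotton is an allotetraploid that carries an A and a D subgenome, so many genes exist as close copies, and a gene on a scaffold may have a near-identical relative on a chromosome. Virescent plants form pale young leaves that turn green later, as chloroplasts mature. The table pairs no identifier with a gene name, so the members are described by identifier, by abundance rank and by value. The label of the tissue could not be checked against leaf marker genes for the same reason.

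FPKM summed to between 1057345 and 1068010 in virescent libraries and between 1019041 and 1048966 in wild-type libraries. The number of sequenced fragments behind the values is unknown, so no counting interval or detection limit is given. In whole leaves, fewer cells of a type and less RNA per cell cannot be told apart. Libraries virescent 2 and wild type 2 lay nearer to the other genotype than the rest. Across all tested genes, which are not independent replicates, their mean Pearson's r with the other genotype was 0.937 and 0.945, against 0.917 to 0.926 for the other 4 libraries. Where leaving out 1 or both of them changes the call of a named member, the value without them is given too.

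Most members were moderately abundant. Their mean FPKM ran from 10.1 to 521, with a median of 23.2 and quartiles of 13.8 and 38.5. Chromosome-labelled identifiers of 10 FPKM or more had a similar median, 22.0 FPKM (n = 13393). Of the scaffold identifiers, 10.3% reached the threshold, against 23.1% of the chromosome-labelled ones, and since the threshold chose the members this is a description only. Between 10 and 20 FPKM lay 84 members, between 20 and 50 FPKM 67, between 50 and 100 FPKM 21, and at 100 FPKM or more 20. Near the threshold, Gh_Sca007675G01 and Gh_Sca010487G02 were just inside at means of 10.1 FPKM each, and Gh_Sca005165G01 and Gh_Sca006886G02 were just outside at 9.95 and 9.87 FPKM.

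**Figure D1:**
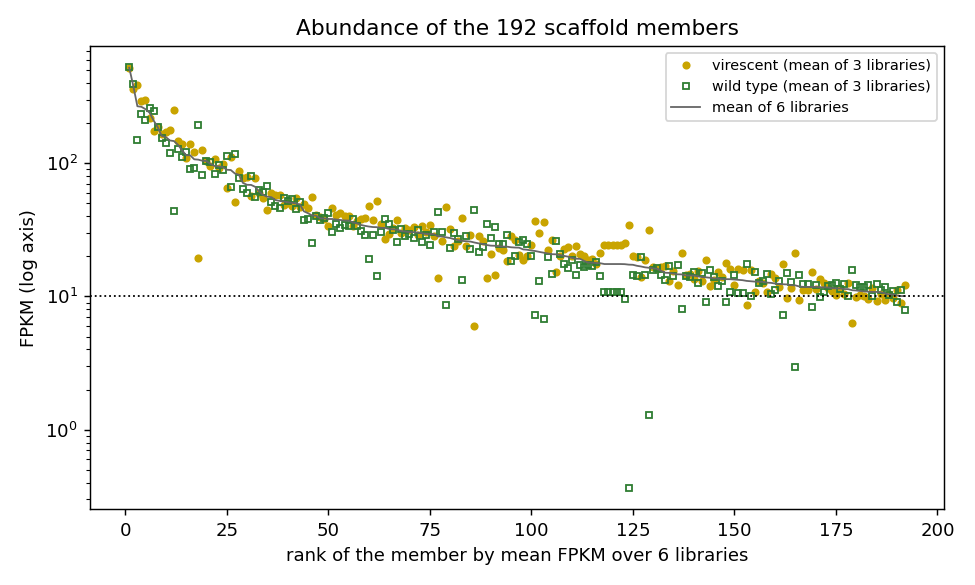
Mean FPKM (log axis) of each of the 192 members in virescent leaves (filled circles) and in wild-type leaves (open squares), each a mean of 3 libraries, by rank of the mean over 6 libraries (line); the dotted line is the threshold of 10 FPKM. The curve runs from 521 FPKM to 10.1 FPKM, and a few members have genotype means far apart.

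The members together held 0.846% ± 0.060 of the summed FPKM in virescent libraries and 0.775% ± 0.030 in wild-type libraries (SD, n = 3 each). By library the share was 0.815%, 0.916% and 0.808% in virescent 1 to 3, and 0.751%, 0.765% and 0.808% in wild type 1 to 3. Virescent 2 stood highest. The groups did not overlap, but virescent 3, at 0.8082%, exceeded wild type 3, at 0.8079%, by far less than either SD. The 8 most abundant members made up 27.1% ± 1.8 of the members' sum in virescent libraries and 27.6% ± 2.6 in wild-type libraries (SD, n = 3 each).

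The most abundant member was Gh_Sca102881G01, with 512, 539.9 and 492 FPKM in virescent leaves, against 499, 526 and 558 FPKM in wild-type leaves. Gh_Sca015328G01 followed, with 329, 379.9 and 382 FPKM in virescent leaves and 435, 385 and 366 FPKM in wild-type leaves. In both members the genotypes overlapped, and neither passed the test described below (limma adjusted p = 0.855 and 0.563).

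Gh_Sca004987G01, at rank 3, rose in virescent leaves. It had 319, 289.8 and 552 FPKM there, against 165, 167 and 114 FPKM in wild-type leaves. Every virescent library lay above every wild-type library, and virescent 3 stood well above the other two. On log2(FPKM + 1) the change was 1.34 ± 0.26 (SE, limma adjusted p = 0.0234). The call was lost without virescent 1 (limma adjusted p = 0.0527), wild type 1 (limma adjusted p = 0.0791) or wild type 3 (limma adjusted p = 0.0776), in the block fit (limma adjusted p = 0.0847) and without the filter on low values (limma adjusted p = 0.0576).

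Gh_Sca081044G01, at rank 4, had 306, 305 and 272 FPKM in virescent leaves, against 241, 219 and 247 FPKM in wild-type leaves. Its groups did not overlap, yet the log2 change of 0.32 ± 0.11 (SE) missed the threshold (limma adjusted p = 0.109). Gh_Sca012883G01 had 263, 328 and 299.5 FPKM in virescent leaves and 182, 280.1 and 175 FPKM in wild-type leaves, where wild type 2 reached into the virescent range. Its log2 change was 0.51 with all libraries (limma adjusted p = 0.136), 0.73 and called without wild type 2 (limma adjusted p = 0.0254), and 0.65 and not called without both number-2 libraries (limma adjusted p = 0.0605).

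Gh_Sca035444G01 had 224, 212 and 224 FPKM in virescent leaves, against 321, 225 and 232 FPKM in wild-type leaves (limma adjusted p = 0.398). Its groups did not overlap, but by a margin of less than 1 FPKM. Gh_Sca006071G01 had 194, 198 and 171 FPKM in virescent leaves and 214, 170.1 and 172 FPKM in wild-type leaves, which overlapped (limma adjusted p = 0.937).

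Gh_Sca005135G01, at rank 7, was highest in library 2 of each genotype. It had 40.1, 409.8 and 71.5 FPKM in virescent leaves, and 129, 377 and 228 FPKM in wild-type leaves. The genotypes overlapped, and the coefficient of variation (CV, the SD as a percentage of the mean) was 118% in virescent leaves, the highest of any member in either genotype. The log2 change of -1.07 ± 0.79 (SE) did not pass the test (limma adjusted p = 0.419). It passed without virescent 2, at -2.04 (limma adjusted p = 0.0472), and without both number-2 libraries, at -1.66 (limma adjusted p = 0.0397).

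**Figure D2:**
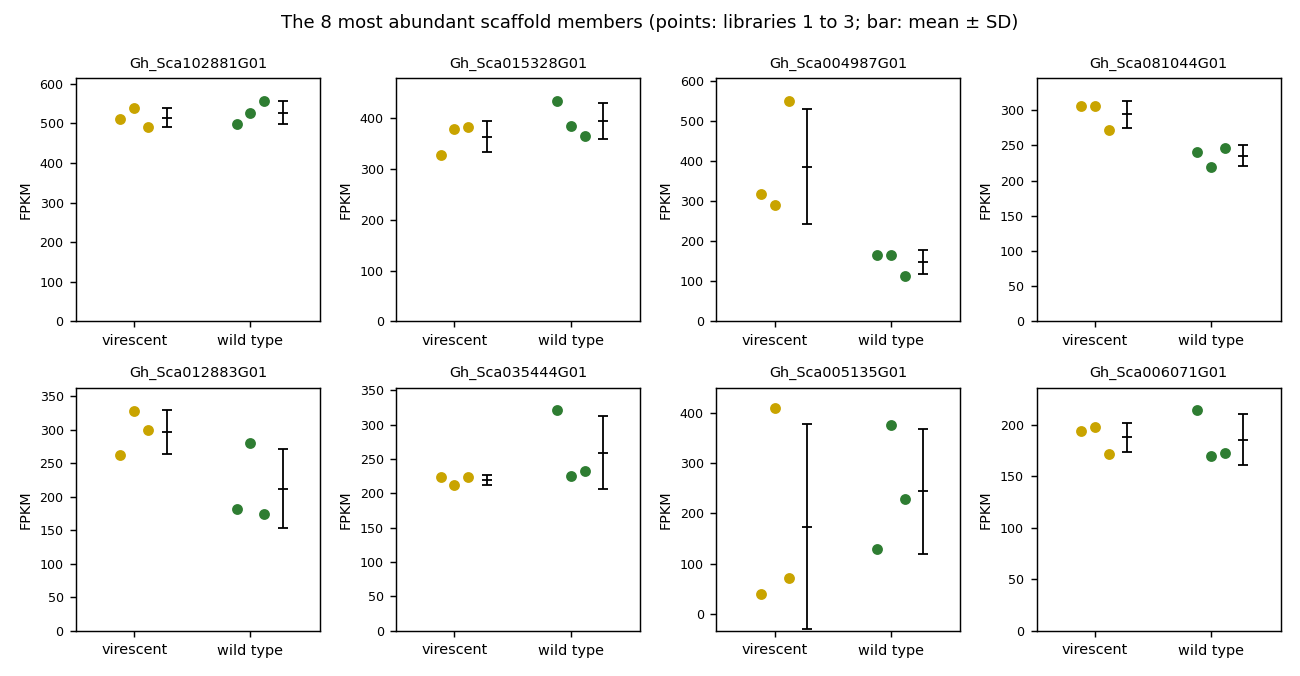
FPKM of the 8 most abundant members in virescent (left) and wild-type (right) libraries, with 1 point per library from 1 to 3 and the mean ± SD of each genotype (n = 3) as a bar. Gh_Sca004987G01 lies higher in all virescent libraries, and Gh_Sca005135G01 is highest in library 2 of each genotype.

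The comparison of the genotypes was fitted to all 43104 identifiers with at least 1 FPKM in at least 3 libraries, by limma on log2(FPKM + 1). Genes with a Benjamini-Hochberg adjusted p under 0.05 are called. This scale understates the change of low genes. All 192 members were among the tested genes. Virescent leaves had 28 called members, 21 of them higher and 7 lower, and 164 were not called. That is 14.6% of the members, where 10.3% of all tested genes were called. Higher were 10.9% of the members, against 6.3% of all tested genes, and lower were 3.65%, against 4.05%. Among chromosome-labelled genes of 10 FPKM or more, a group chosen on the same level, 13.2% were called, with 9.31% higher and 3.92% lower. Of the 546 tested scaffold genes below the threshold, 10.6% were called, with 5.68% higher and 4.95% lower. The share in the members was thus near that of equally abundant genes on chromosomes.

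The median log2 change of the members was 0.12, with quartiles of -0.16 and 0.42. The median of the equally abundant chromosome-labelled genes was 0.11, and that of all tested genes was 0.050. The members' median was 0.057 after median-ratio scaling, where that of all tested genes was -0.0025. It was 0.076 without virescent 1 and 0.041 without both number-2 libraries, where all tested genes had 0.048 and 0.059. The estimate was positive in 114 members and negative in 78. The genotypes did not overlap in 71 members (37.0%), 48 higher and 23 lower in virescent leaves. The same held for 33.7% of all tested genes and for 39.1% of chromosome-labelled genes of 10 FPKM or more. Of these 71 members, 43 were not called.

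The counts of called members changed when single libraries were left out, as did the share called in the whole table. With the members and the tested genes kept, 15 members were called higher and 5 lower without virescent 2, and 27 and 8 without wild type 2. In the other 4 fits that leave out 1 library, 0 falls were called by limma. Of the members, 11 were called higher and 0 lower without virescent 1, and 17 and 0 without virescent 3. Without wild type 1 the counts were 7 and 0, and without wild type 3 they were 9 and 0. Without both number-2 libraries 18 members were called higher and 10 lower. Without a filter on low values, limma called 15 members higher and 1 lower, and with the replicate number as a blocking term 8 and 0. At an unadjusted p under 0.05, limma found 17 members lower with all libraries, 14 without virescent 1, 14 without virescent 3, 16 without wild type 1, 10 without wild type 3 and 14 in the blocked fit. The share of all tested genes at this unadjusted limit was not counted, so these counts are a description only. In the whole table, the 5 fits with 0 called falls called between 0.877% of the genes, without wild type 1, and 6.28%, without virescent 3. The share was 5.93% without virescent 2, 11.4% without wild type 2 and 8.78% without both number-2 libraries. Without a filter it was 3.46%, against 10.3% in the main fit.

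Membership itself favours some changes, because a member high in 1 genotype can reach a mean of 10 through that genotype alone. This was the case for 27 members whose mean in the other genotype was below 10 FPKM. They held 10 of the rises and 3 of the falls. Among the 165 members with a mean of 10 FPKM or more in each genotype, 11 were called higher and 4 lower.

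**Figure D3:**
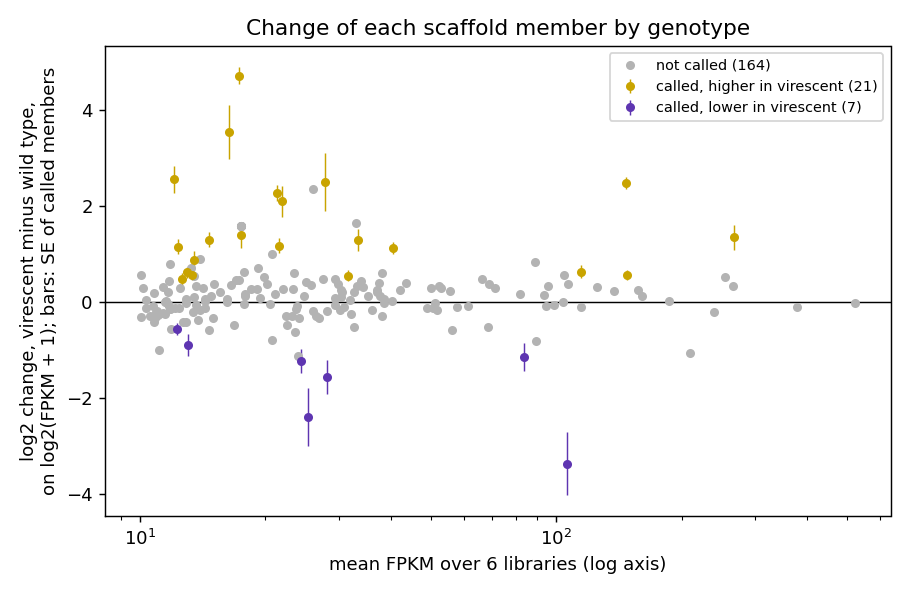
Log2 change of each member, virescent minus wild type on log2(FPKM + 1), against its mean FPKM (log axis), with SE bars on called members. The 21 called rises and 7 called falls are spread over the range of abundance, from 12.1 to 268 FPKM and from 12.3 to 106 FPKM.

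Of the 192 members, 19 were called with at least a 2-fold change, 14 higher and 5 lower. Among all tested genes 4.4% changed so far, and among chromosome-labelled genes of 10 FPKM or more 5.26%. The difference between these groups was not tested. A 4-fold limit left 9 members, 7 higher and 2 lower, where 0.708% of all tested genes passed it. Those genes were not chosen by a mean of 10 FPKM, and the rule favours such members, as described above. The share of equally abundant chromosome-labelled genes at this limit was not counted, so this is a description only. In log2 units the median size was 1.29 for the rises and 1.24 for the falls. By abundance, 10 members rose and 2 fell between 10 and 20 FPKM, and 7 rose and 3 fell between 20 and 50 FPKM. From 50 to 100 FPKM 0 were called higher by limma (2 at an unadjusted p under 0.05) and 1 lower, and at 100 FPKM or more 4 rose and 1 fell. Of the chromosome-labelled genes, 11.9% were called between 10 and 20 FPKM and 13.7% between 20 and 50 FPKM. From 50 to 100 FPKM 17.8% of them were called, and at 100 FPKM or more 12.3%. The 4 classes held 84, 67, 21 and 20 members, so the counts in the upper classes rest on few members.

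The largest rise was that of Gh_Sca024064G01, at abundance rank 124. It had 38.3, 31.9 and 32.7 FPKM in virescent leaves, against 0.52, 0.51 and 0.060 FPKM in wild-type leaves. All virescent libraries were close together, and no wild-type library reached 1 FPKM. The log2 change was 4.71 ± 0.17 (SE, limma adjusted p = 0.00025), and 6.45 at a pseudocount of 0.1. The gene is a member through the virescent libraries alone, since its wild-type mean was 0.363 ± 0.263 FPKM (SD, n = 3). The call held in each of the 14 alternative fits.

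The second largest rise was that of Gh_Sca005409G01, at rank 129, with 8.27, 45.4 and 40.9 FPKM in virescent leaves, against 1.85, 1 and 1 FPKM in wild-type leaves. Virescent 1 lay well below the other two virescent libraries and still above every wild-type library. The wild-type mean was 1.28 ± 0.49 FPKM (SD, n = 3), so the gene is a member through the virescent libraries alone. The log2 change was 3.54 ± 0.56 (SE, limma adjusted p = 0.0135). It missed the threshold without wild type 1 (limma adjusted p = 0.0603), without wild type 3 (limma adjusted p = 0.0543) and in the fit that blocks on replicate number (limma adjusted p = 0.0544).

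The largest fall was that of Gh_Sca010764G01, at rank 18, with 12.3, 39.8 and 6.60 FPKM in virescent leaves, against 111, 115 and 353 FPKM in wild-type leaves. The levels varied widely within both genotypes, with a CV of 90.7% in virescent and 71.8% in wild-type leaves, and they did not overlap. The log2 change was -3.38 ± 0.65 (SE, limma adjusted p = 0.0221). The call was lost without virescent 1 (limma adjusted p = 0.0674), virescent 3 (limma adjusted p = 0.0522), wild type 1 (limma adjusted p = 0.0733) or wild type 3 (limma adjusted p = 0.0680), in the block fit (limma adjusted p = 0.0760) and without the filter (limma adjusted p = 0.0575).

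Gh_Sca090787G01, at rank 86, fell with 8.85, 5.07 and 4.13 FPKM in virescent leaves, against 46.8, 11.5 and 76.0 FPKM in wild-type leaves. Wild type 2 was by far the lowest wild-type library and came close to virescent 1. The log2 change of -2.41 ± 0.61 (SE) passed narrowly (limma adjusted p = 0.0460). Without wild type 2 it was -3.17 (limma adjusted p = 0.0044). The call was lost without any 1 of the other 5 libraries, with limma adjusted p between 0.0792 and 0.1599, in the block fit (limma adjusted p = 0.0764) and without the filter (limma adjusted p = 0.0971).

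Of the other 19 risen members, the log2 changes ran from 0.47 to 2.55, and of the other 5 fallen members from -1.57 to -0.57. Wild type 2 was the wild-type library nearest to the virescent ones in 12 of the 21 rises and in 6 of the 7 falls. Virescent 2 was the virescent library nearest to the wild type in 9 of the rises and 4 of the falls. Without both of these libraries the counts were 18 and 10, as given above.

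Only 6 of the 28 called members were called in each of the 14 alternative fits, and all 6 rose. Besides Gh_Sca024064G01 they are 5 members, chosen here after their values were seen and given by abundance rank, with log2 changes from 1.12 to 2.55. The member at rank 12 had 222, 258 and 269 FPKM in virescent leaves, against 46.5, 39.8 and 45.3 FPKM in wild-type leaves, which is 5.69 times the wild-type mean (log2 change 2.48 ± 0.13 SE, limma adjusted p = 0.00111). It was the most abundant of the 6, and its CV was 9.82% in virescent and 8.18% in wild-type leaves.

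The member at rank 46 had 53.6, 52.9 and 61.4 FPKM in virescent leaves, against 26.4, 25.9 and 23.4 FPKM in wild-type leaves. The member at rank 103 had 33.2, 42.0 and 32.5 FPKM in virescent leaves, against 6.68, 8.09 and 5.40 FPKM in wild-type leaves. In both members every virescent library lay well above every wild-type library. The CV was 8.44% in virescent and 6.38% in wild-type leaves at rank 46, and 14.7% and 20.01% at rank 103.

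The member at rank 137 had 24.5, 22.5 and 16.7 FPKM in virescent leaves, against 7.84, 8.20 and 8.03 FPKM in wild-type leaves. The member at rank 165 had 25.1, 19.0 and 19.6 FPKM in virescent leaves, against 3.44, 4.14 and 1.35 FPKM in wild-type leaves. Like Gh_Sca024064G01, the members at ranks 103, 137 and 165 had a wild-type mean below 10 FPKM. Of the 7 falls, 0 stayed called by limma under each of the 6 fits that leave out 1 library. All 7 had an unadjusted p under 0.05 by limma in each. Their choice as called members with all libraries largely fixed that, so it is a description only.

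**Figure D4:**
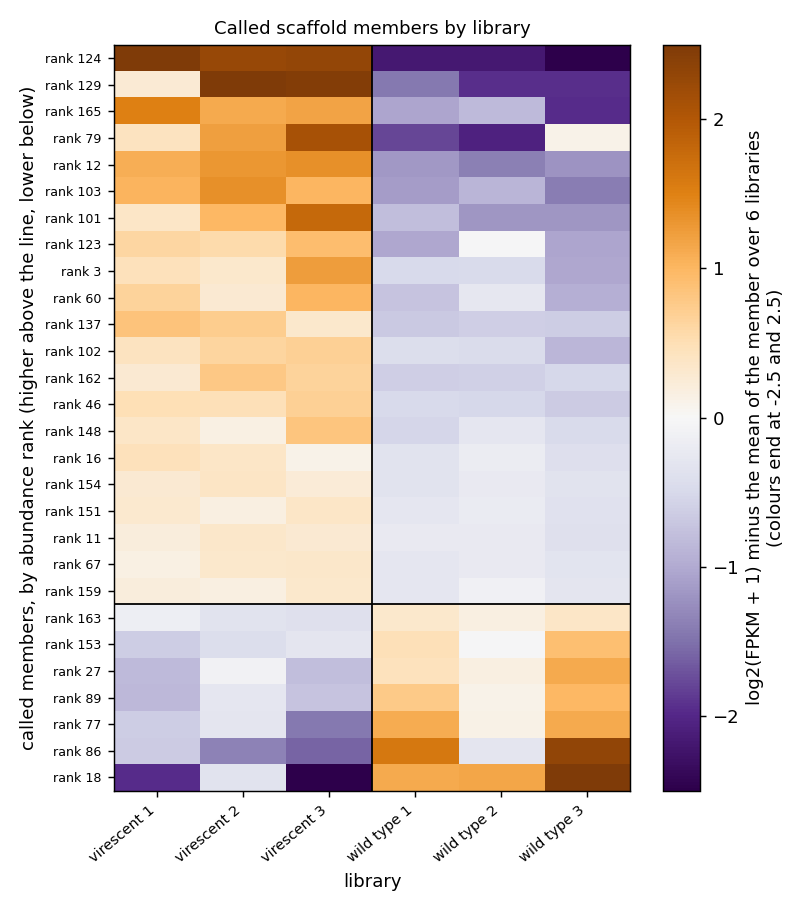
The 28 called members (1 line each, by abundance rank) in the 3 virescent libraries, left, and the 3 wild-type libraries, right, as log2(FPKM + 1) minus the member's mean over 6 libraries. Members above the horizontal line were higher and those below it lower in virescent leaves; wild type 2 is the palest wild-type library in most of the falls.

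A set of members did not stand alone in the table. For 14 of the 192 members (7.29%), all 6 deposited values were identical, to the last decimal, to those of at least 1 chromosome-labelled identifier. The identifiers on the chromosome side numbered 13, or 0.0971% of the 13393 chromosome-labelled identifiers of 10 FPKM or more. Of these 13393, 12 (0.0896%) were identical to another chromosome-labelled identifier. A further 2 members were identical to each other and to no other identifier. The 192 members therefore hold 187 distinct sets of values. Why the values coincide was not tested, and such identifiers are not separate measurements.

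The 14 members fell into 10 sets. In 7 sets 1 scaffold identifier matched 1 chromosome-labelled identifier. The most abundant of these is Gh_Sca081044G01, whose values were given above and are those of Gh_D05G1245 as well. Gh_Sca014314G01 matched Gh_D07G1272, with 70.3, 113 and 149.9 FPKM in virescent leaves and 29.3, 99.0 and 72.3 FPKM in wild-type leaves. The genotypes overlapped, and the change was not called (limma adjusted p = 0.270).

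Gh_Sca009376G02 matched Gh_D08G0446, with 37.8, 36.8 and 25.1 FPKM in virescent leaves and 28.7, 29.7 and 24.1 FPKM in wild-type leaves. Gh_Sca005684G01 matched Gh_A01G2155, with 18.2, 22.0 and 23.5 FPKM in virescent leaves and 8.02, 15.9 and 18.8 FPKM in wild-type leaves. Neither was called, and both overlapped between genotypes.

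Of the 13 chromosome-labelled identifiers, 9 carried an A label and 4 a D label, and 4 of them were on A11. Gh_Sca023511G01 matched Gh_A11G2734, with 19.0, 15.0 and 9.61 FPKM in virescent leaves, against 39.2, 20.2 and 41.0 FPKM in wild-type leaves. Its groups did not overlap, and its log2 change of -1.13 ± 0.32 (SE) missed the threshold (limma adjusted p = 0.0602). It passed without wild type 2 (limma adjusted p = 0.0186) and without both number-2 libraries (limma adjusted p = 0.0328).

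The rule for named members stopped at 10 of the 14. The remaining 4 are named after their values were seen. Gh_Sca058364G01 matched Gh_A11G2807 at a mean of 16.2 FPKM, and Gh_Sca008563G02 matched Gh_A11G0591 at 10.8 FPKM, and neither was called. Gh_Sca007527G02 belongs to the set of 7 described next, and Gh_Sca131268G01 to the set described after it.

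In 3 sets there were 2 chromosome-labelled identifiers. The largest set held 7 identifiers, namely Gh_Sca005787G05, Gh_Sca007527G02, Gh_Sca008679G02, Gh_Sca009858G01 and Gh_Sca010765G02 on 5 scaffolds, and Gh_A12G0217 and Gh_A13G2231. All had 36.6, 32.1 and 4 FPKM in virescent leaves, against 8.14, 0 and 24.2 FPKM in wild-type leaves. The level thus varied widely within both genotypes, and wild type 2 was listed at 0. Each of the 5 members gave the same log2 change of 1.58 ± 1.20 (SE, limma adjusted p = 0.430), which is 1 measurement counted 5 times. Gh_Sca020850G01 matched Gh_A11G1663 and Gh_A13G2213, with 99.1, 120.5 and 75.6 FPKM in virescent leaves and 74.5, 86.4 and 106 FPKM in wild-type leaves, which overlapped.

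Gh_Sca131268G01 was the 1 called member among the 16 with an identical identifier, which form 11 sets. Of all members 14.6% were called, and of all tested genes 10.3%. With so few sets the count is a description only. Gh_Sca131268G01 matched Gh_A08G1535 and Gh_D08G1835, on chromosome labels of the same number in both subgenomes. All 3 had 13.9, 20.1 and 18.4 FPKM in virescent leaves, against 7.05, 7.07 and 7.60 FPKM in wild-type leaves. The wild-type mean was 7.24 ± 0.31 FPKM (SD, n = 3), so membership came through the virescent libraries alone. The log2 change was 1.15 ± 0.15 (SE, limma adjusted p = 0.00931), so 1 profile gave 3 calls in the whole table. It was no longer called without wild type 1 (limma adjusted p = 0.0542), and it held in the other 13 alternative fits.

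**Figure D5:**
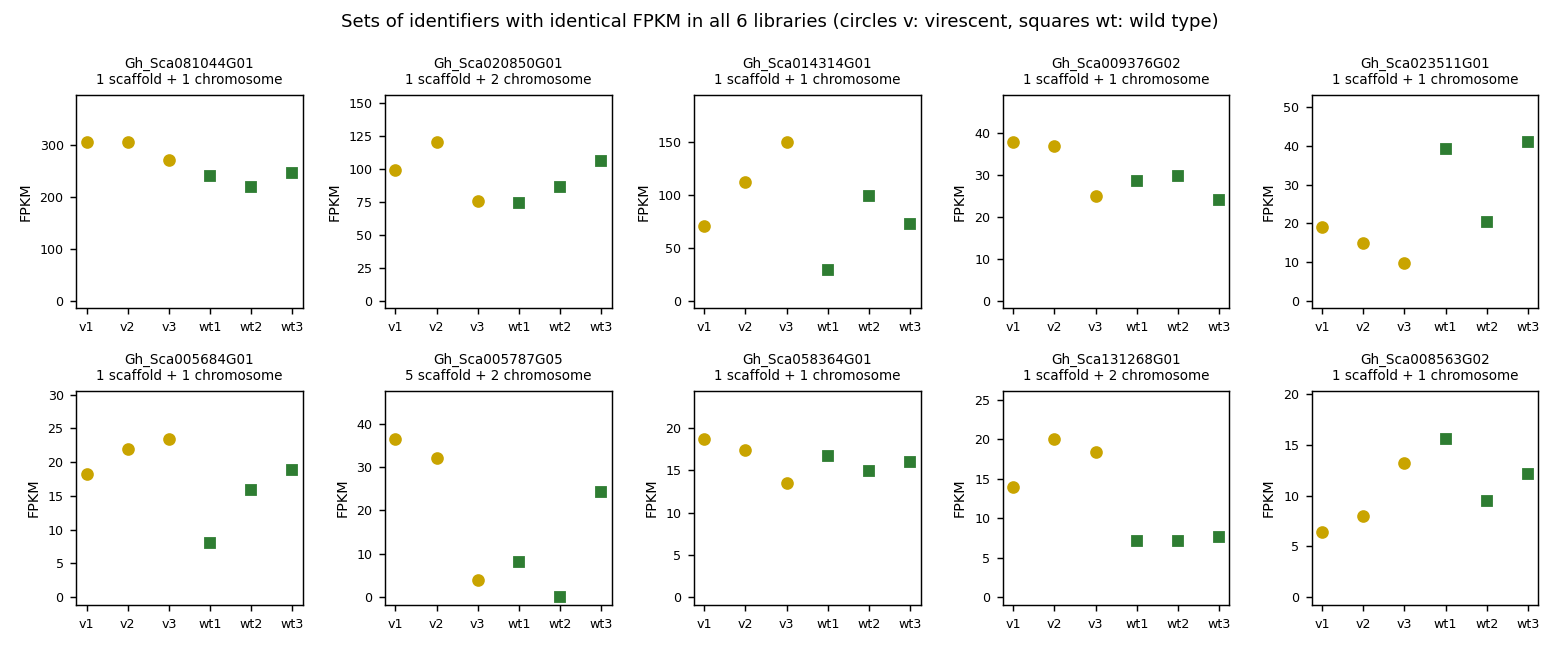
FPKM by library (circles, virescent 1 to 3; squares, wild type 1 to 3) of the 10 sets in which a member shares all 6 values with a chromosome-labelled identifier; titles give 1 member and how many identifiers the set holds. The set of Gh_Sca131268G01 is the only 1 of the 10 that was called, where 14.6% of all members and 10.3% of all tested genes were called. The set of Gh_Sca005787G05 reaches 0 in wild type 2.

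Most members were the only one on their scaffold. The 192 members lay on 176 scaffolds, 163 of them with 1 member, 11 with 2, 1 with 3 and 1 with 4. In the table as a whole 120 members (62.5%) were the only identifier of their scaffold, against 78.1% of all 1862 scaffold identifiers. The scaffold with most members was Sca004717. Its members Gh_Sca004717G12, Gh_Sca004717G03, Gh_Sca004717G14 and Gh_Sca004717G05 had means of 40.3, 35.4, 27.5 and 19.2 FPKM.

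The first 2 of these had a like profile, with virescent 3 highest. Gh_Sca004717G12 had 36.3, 32.6 and 53.5 FPKM in virescent leaves and 43.0, 42.4 and 34.2 FPKM in wild-type leaves. Gh_Sca004717G03 had 32.2, 29.7 and 49.5 FPKM in virescent leaves and 34.6, 36.1 and 30.2 FPKM in wild-type leaves. Gh_Sca004717G14 had 33.9, 30.1 and 31.7 FPKM in virescent leaves, against 25.8, 24.2 and 19.1 FPKM in wild-type leaves, and did not overlap. None of the 4 was called by limma, and Gh_Sca004717G14 came nearest (limma adjusted p = 0.0784, unadjusted p = 0.0121).

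Of the 29 members on the 13 scaffolds with 2 or more members, 3 were called. Of all members 14.6% were called, and of all tested genes 10.3%. By limma 0 scaffolds held more than 1 called member, while 3 held more than 1 at an unadjusted p under 0.05. Of these, Sca004908 had members changing the same way, and Sca004867 and Sca005978 had members changing in opposite directions. With so few calls this is a description only. On Sca009545 1 member rose, changing by 1.16 ± 0.16 on the log2 scale (SE, limma adjusted p = 0.009999), and the other, at 98.8 FPKM, had a change of -0.08 ± 0.16 (SE, limma adjusted p = 0.783). On Sca005978 1 member fell by 1.24 on the log2 scale (SE 0.25, limma adjusted p = 0.0246), while the other had an estimate of 0.32 ± 0.11 (SE, limma adjusted p = 0.107). On Sca004908 1 member rose by 0.61 (SE 0.11, limma adjusted p = 0.0198), and the other had an estimate of 0.29 ± 0.11 (SE, limma adjusted p = 0.141). On Sca004867 the estimates were 0.27 ± 0.11 and -0.50 ± 0.20 (SE, limma adjusted p = 0.152 and 0.154). Differences between members of a scaffold were not tested.

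Some members varied strongly between libraries of 1 genotype. The median CV of the members was 15.4% in virescent and 13.6% in wild-type leaves, against 12.4% and 11.6% for chromosome-labelled genes of 10 FPKM or more. A CV over 50% was found in 15 members (7.81%) in virescent leaves and in 18 (9.38%) in wild-type leaves. For the chromosome-labelled genes these shares were 2.84% and 1.99%. The set of 5 members with identical values is counted 5 times here, and without repeats the counts were 11 and 14 distinct profiles.

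Among the members of wide spread, Gh_Sca092210G01 is named after its values were seen. It had 55.4, 24.4 and 37.3 FPKM in virescent leaves, against 0, 17.2 and 22.4 FPKM in wild-type leaves. The groups did not overlap, wild type 1 was listed at 0, and the gene was not called. In all, 6 members were listed at 0 in at least 1 library, of which 5 are the identical set. Gh_Sca089655G01, also named after its values were seen, had 17.2, 49.6 and 11.2 FPKM in virescent leaves and 26.9, 21.9 and 31.6 FPKM in wild-type leaves, so that virescent 2 exceeded every other library while virescent 1 and 3 lay below all of the wild type.

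The library with a member's highest value was a virescent one in 120 members (49 in virescent 1, 38 in virescent 2 and 33 in virescent 3) and a wild-type one in the other 72 (21, 15 and 36 in wild type 1 to 3). Virescent 3 also held the lowest value of 53 members, more than any other library. The same counts were not made for other genes, and the virescent libraries had the larger FPKM sums. These counts are thus a description only, and they include each member of an identical set.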

How the data were processed

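Messenger RNA was sequenced in 3 virescent and 3 wild-type leaf libraries, grouped by the genotype label. Values are FPKM as the authors deposited them, per the file headers, in a table of 65126 identifiers with 2 decimals. The aligner, counter, annotation and depth were not given in the sources consulted. The submitters' processing notes list a single build, mm10, which is a mouse build. How reads shared by near-identical genes were counted is not described, so values of single identifiers are uncertain. A RefSeq table of another cotton assembly matched 0 of the identifiers, so no gene name, role, sequence or leaf marker is given.

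The fit covered the 43104 identifiers with at least 1 FPKM in at least 3 libraries. On log2(FPKM + 1), limma 3.58.1 (R 4.3.3) fitted genotype as single term, with a trended empirical Bayes prior. P-values were adjusted by Benjamini-Hochberg over all of these identifiers, with a threshold of 0.05. The code was tested on simulated data. Tables were made with Python 3.11.15 and pandas 2.3.3. The members, lists and alternatives were chosen with earlier results of these data known. Named by rule were the 8 most abundant members, the 2 largest rises and 2 largest falls among called members without overlap, up to 10 members with an identical chromosome-labelled identifier, the 2 members and 2 non-members nearest the threshold of 10 FPKM, and the scaffold with most members. Alternatives were another pseudocount, filters, scalings, no trend, a replicate block, left-out libraries, other membership thresholds and looser matching.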

Additional observations from a re-analysis of the deposited data

How the results depend on the processing

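Another pseudocount, a filter of 5 FPKM, both rescalings, no trend and counting identical sets once kept the counts of called members within 1.5 times, and in each of the 14 refits every called member kept its sign, which its lack of overlap largely fixed. Without a filter 15 members rose, 1 fell and 11 changed at least 2-fold, at 3.46% called in the whole table. With the replicate block 8 rose, 0 fell and 8 changed at least 2-fold, at 1.54% called in the whole table; same-numbered libraries deviated with correlations of 0.08, -0.28 and -0.24, with the closest match under the same number for number 1 alone, so the numbers were not taken as pairs. With 1 library left out, 7 to 27 rose, 0 to 8 fell and 7 to 22 changed at least 2-fold. In these fits between 0.877% and 11.4% of the whole table was called. Without both number-2 libraries the median log2 change was 0.041. With members of 5 FPKM or more (331) 29 rose, 19 fell and 24 were identical to a chromosome-labelled identifier. Their share of summed FPKM was 0.941% in virescent and 0.869% in wild-type leaves. At 20 FPKM or more (108) 11 rose, 5 fell, 5 were identical and the shares were 0.726% and 0.673%. With 10 FPKM in each genotype 11 rose and 4 fell. Uncalled changes near 0 turned sign. Gh_Sca006071G01 had -0.017 at equal sums, -0.043 at median-ratio scaling, -0.077 without both number-2 libraries and -0.038 to 0.13 with 1 left out. Gh_Sca004717G12 had -0.028 at equal sums, -0.053 at median-ratio scaling and -0.20 to 0.15 with 1 left out. Gh_Sca020850G01 had -0.039 without both and -0.025 to 0.31 with 1 left out. A larger uncalled change also turned sign, in the set of Gh_Sca005787G05, Gh_Sca007527G02, Gh_Sca009858G01, Gh_Sca008679G02 and Gh_Sca010765G02. It was 1.58 ± 1.20 (SE) with all libraries and -0.15 without both. With 1 library left out Gh_Sca102881G01 ran from -0.076 to 0.0051 and Gh_Sca004717G03 from -0.11 to 0.25. Causes of these shifts were not tested; fits with fewer libraries have less power. Depth is unknown.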
